A study of Mus musculus with 10 samples.

Results

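The Hippo-YAP genes were 10 genes chosen by name, namely the transcriptional coactivators *Yap1* and *Wwtr1* (TAZ), the DNA-binding partner *Tead1*, the kinases *Lats1* and *Lats2*, and the target genes *Ctgf*, *Cyr61*, *Ankrd1*, *Amotl2* and *Axl*. All 10 were found among the 24052 gene symbols counted by RNA sequencing in mouse liver. There were 10 livers with 1 library each, 5 of wild-type and 5 of Ndrg3 LKO mice, the latter being C57BL/6 mice (made by backcrossing to C57BL/6N) lacking exon 4 of *Ndrg3* in hepatocytes. The deletion was made by crossing a floxed *Ndrg3* allele to mice carrying Cre under the albumin promoter, so that other liver cells keep the gene, and the wild-type mice were littermates. Both groups were fed ad libitum and were male as far as the general description of the mice goes. Their age is given as 8 to 10 weeks where tissue collection is described and as 10 to 12 weeks in a legend for the same livers. Legends for these livers also count 4 Ndrg3 LKO mice without saying which were used, and all 5 deposited Ndrg3 LKO livers are analysed here. A wild-type library held 20872262 to 24747870 counts in total and an Ndrg3 LKO library 23474693 to 30450057.

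The Hippo pathway is a kinase cascade that restrains growth. Its MST kinases activate LATS1 and LATS2, which phosphorylate YAP and TAZ and so keep them out of the nucleus. When YAP and TAZ are not phosphorylated they enter the nucleus, bind TEAD factors and raise target genes such as *Ctgf* and *Cyr61*. In liver the pathway is known for its control of organ size, hepatocyte identity and bile duct cells, and both coactivators are also present in endothelial and stellate cells. Transcript levels do not measure the phosphorylation or the location of YAP and TAZ, which were not measured in these libraries.

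*Ndrg3* itself was lower in every library labelled Ndrg3 LKO. Its level was 15.9 to 21.9 CPM (counts scaled to a common library size with edgeR's TMM factors) in the wild-type livers and 7.07 to 9.15 CPM in the Ndrg3 LKO livers, a log2 fold change of -1.20 (SE 0.13, edgeR quasi-likelihood test with Benjamini-Hochberg adjustment, adjusted p = 3.87e-05). Ndrg3 LKO replicate 5 stood apart from the other livers of its group. Its 20 most abundant genes took 26.6% of the counts, against 16.3 to 17.3% in Ndrg3 LKO replicates 1 to 4 and 26.2 to 28.0% in the wild-type livers. Its *Alb* level was 107851 CPM, within the wild-type range of 80539 to 115834 CPM and above the 20907 to 26317 CPM of the other Ndrg3 LKO livers. On the first principal component of all tested genes, which held 68.7% of the variance, it lay at 14.1, with wild-type livers at -49.9 to -43.1 and the other Ndrg3 LKO livers at 51.1 to 56.6. The main results that depend on this library are given with and without it.

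Promoter sequences show where the letters that TEAD factors recognise lie in these genes. In the RefSeq promoter table of GRCm38.p6, which holds 250 bases before and 50 bases after each start, 8 of the 10 genes were found, all but *Ctgf* and *Tead1*. GGAATG, read on both strands, was present in a promoter of 7 of these 8 genes, all but *Lats1*, and in 4481 of 27025 genes of the table (16.6%). In *Lats2* it lay only after the start. The AP-1 motif TGANTCA, which can overlap GGAATG by its end letters, was in 0 of the 8 genes and in 8.97% of the genes of the table. The 250 bases before the start are shown for the 4 target genes in the table and for *Wwtr1*, the one of the 10 genes that fell, with GGAATG or its reverse complement in capitals. A match is a description of the sequence and says nothing of binding.
Cyr61 (Ccn1 in RefSeq) chr3:145649986-145650235, minus strand: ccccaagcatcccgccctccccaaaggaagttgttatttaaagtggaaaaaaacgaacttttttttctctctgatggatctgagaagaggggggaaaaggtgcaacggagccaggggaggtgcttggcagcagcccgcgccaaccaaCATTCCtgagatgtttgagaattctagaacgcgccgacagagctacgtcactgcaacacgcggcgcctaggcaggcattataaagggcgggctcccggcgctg
Ankrd1 chr19:36119845-36120094, minus strand: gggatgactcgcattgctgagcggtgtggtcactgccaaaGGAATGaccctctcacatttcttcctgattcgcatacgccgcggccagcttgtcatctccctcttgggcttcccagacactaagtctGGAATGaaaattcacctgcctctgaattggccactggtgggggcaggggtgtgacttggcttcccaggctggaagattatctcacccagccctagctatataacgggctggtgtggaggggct
Amotl2 chr9:102717554-102717803, plus strand: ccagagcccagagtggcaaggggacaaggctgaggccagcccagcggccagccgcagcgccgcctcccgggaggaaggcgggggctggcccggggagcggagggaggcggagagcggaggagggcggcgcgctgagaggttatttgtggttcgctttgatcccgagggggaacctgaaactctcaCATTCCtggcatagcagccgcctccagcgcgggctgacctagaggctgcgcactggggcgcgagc
Axl chr7:25788734-25788983, minus strand: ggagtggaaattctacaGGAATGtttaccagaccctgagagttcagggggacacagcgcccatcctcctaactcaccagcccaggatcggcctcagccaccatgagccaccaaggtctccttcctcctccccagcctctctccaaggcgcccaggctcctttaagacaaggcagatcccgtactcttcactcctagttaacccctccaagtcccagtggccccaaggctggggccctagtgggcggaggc
Wwtr1 chr3:57575911-57576160, minus strand: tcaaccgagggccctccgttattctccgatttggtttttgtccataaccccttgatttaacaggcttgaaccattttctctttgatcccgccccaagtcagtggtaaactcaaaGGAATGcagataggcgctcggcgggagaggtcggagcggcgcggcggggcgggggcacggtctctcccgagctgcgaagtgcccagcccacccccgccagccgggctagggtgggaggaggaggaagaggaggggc
In these sequences the match began 103 bases before the start in *Cyr61*, 65 in *Amotl2*, 233 in *Axl* and 136 in *Wwtr1*. *Ankrd1* held 2 matches, at 210 and 123 bases before the start.

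Of the 10 genes, 9 passed the filter of at least 1 CPM, taken before TMM scaling, in at least 5 livers. Among them *Cyr61*, *Axl* and *Tead1* rose in Ndrg3 LKO livers, *Wwtr1* fell, and the other 5 did not pass the test. Of all genes tested, 25.6% were called higher and 23.0% lower. These 4 changed genes were 44.4% of the 9 tested, against 48.6% of all 11208 genes tested, so the share was near that of liver genes in general. The median log2 fold change was 0.16 over the 9 genes and 0.031 over all genes tested. The number of changed genes was also 4 without Ndrg3 LKO replicate 5, when 55.6% of all genes passed. Scaling by library size alone moved the median of all genes to 0.56, with 5834 genes called higher and 1005 lower, against 2865 and 2578 with TMM. On that scale 6 of the 9 genes were called higher and 1 lower, among 61.0% of all genes called.

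**Figure D1:**
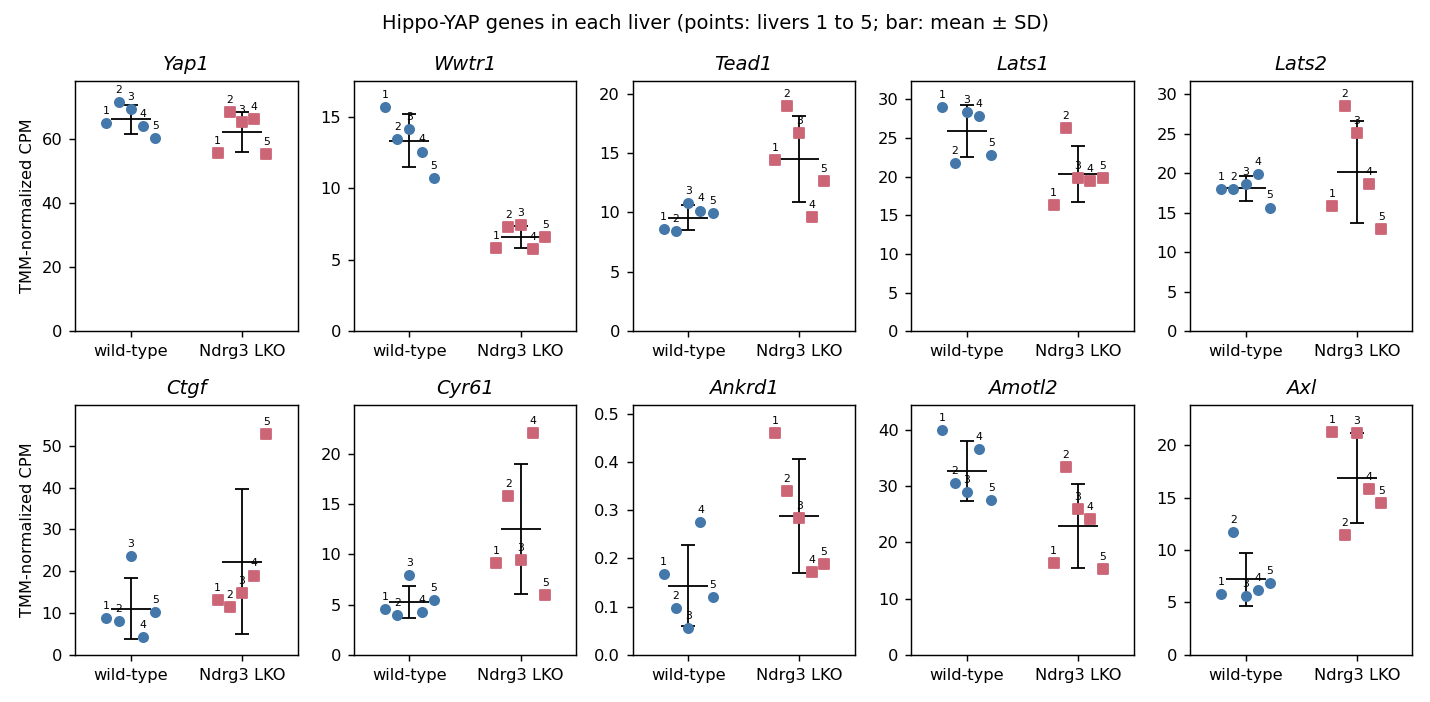
TMM-normalized CPM (vertical axes, linear, each starting at 0) of the 10 genes in the 5 wild-type and 5 Ndrg3 LKO livers, 1 point per liver with its replicate number, and the mean ± SD of each group. *Wwtr1* alone shows no overlap between the groups, and Ndrg3 LKO replicate 5 lies far above the other livers for *Ctgf* at 52.9 CPM.

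The coactivators differed from each other. *Yap1* (mm9 chr9:7931999-8004596, minus strand) was at 65.3, 71.6, 69.7, 64.2 and 60.6 CPM in wild-type replicates 1 to 5 and at 55.8, 68.6, 65.4, 66.3 and 55.3 CPM in Ndrg3 LKO replicates 1 to 5. The groups overlapped in 3 of the 5 Ndrg3 LKO livers, and the other 2, replicates 1 and 5, were below every wild-type liver. The log2 fold change was -0.09 (SE 0.11, edgeR adjusted p = 0.526). Under library-size scaling it was 0.46, past the threshold (adjusted p = 0.0335), and -0.10 from the all-gene median on that scale. In the annotation 116 exon bases of *Yap1* are shared with a gene on the opposite strand.

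*Wwtr1*, which encodes TAZ (chr3:57259571-57379832, minus strand), was at 15.7, 13.5, 14.2, 12.6 and 10.7 CPM in the wild-type livers and at 5.83, 7.27, 7.43, 5.75 and 6.60 CPM in the Ndrg3 LKO livers. No liver of one group reached the range of the other. Groups were apart in this way, with Ndrg3 LKO lower, in 16.0% of all genes tested, and in either direction in 31.5%. The mean was 13.3 ± 1.86 CPM (SD, n = 5) in wild-type and 6.58 ± 0.781 CPM (SD, n = 5) in Ndrg3 LKO livers, 2.02-fold lower in the fit (log2 fold change -1.02, SE 0.14, edgeR adjusted p = 0.000229). Leaving out each liver in turn gave log2 fold changes of -1.10 to -0.97, all past the threshold. Under library-size scaling it was -0.48 (adjusted p = 0.0416), which is -1.04 from the all-gene median on that scale.

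Since both coactivators are read from the same library, their ratio does not depend on the scaling. Counts of *Yap1* per count of *Wwtr1* were 4.15, 5.31, 4.92, 5.09 and 5.66 in wild-type replicates 1 to 5 against 9.58, 9.44, 8.81, 11.5 and 8.38 in Ndrg3 LKO replicates 1 to 5, with no overlap. The mean log2 ratio was 2.32 ± 0.17 (SD, n = 5) and 3.25 ± 0.17 (SD, n = 5), a difference of 0.92. The 2-sided exact permutation test over 252 splits gave p = 0.00794, the smallest it can give for 5 against 5 livers, and 0.0317 after Benjamini-Hochberg adjustment over the 4 ratios tested.

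*Tead1* (chr7:119822832-120050319, plus strand) encodes a factor that carries YAP and TAZ to DNA. It was at 8.59, 8.41, 10.8, 10.2 and 9.94 CPM in the wild-type livers and at 14.5, 19.0, 16.7, 9.60 and 12.7 CPM in the Ndrg3 LKO livers. It rose, with a log2 fold change of 0.60 (SE 0.18, edgeR adjusted p = 0.0163). Ndrg3 LKO replicate 4 lay within the wild-type range and the other 4 lay above it. The log2 ratio of *Tead1* to *Yap1* counts was -2.80 ± 0.21 (SD, n = 5) in wild-type and -2.14 ± 0.38 (SD, n = 5) in Ndrg3 LKO livers. That difference of 0.66 had p = 0.0317 in the 2-sided exact permutation test and 0.0529 after adjustment over the 4 ratios. Without Ndrg3 LKO replicate 4 it was 0.82, with an adjusted p of 0.0159 in the exact permutation test. Of the 12 alternatives run for this ratio, only 1 passed, that without replicate 4.

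Neither LATS kinase passed the test. *Lats1* (chr10:7401007-7436256, plus strand) was at 28.9, 21.8, 28.3, 27.9 and 22.8 CPM in the wild-type livers and at 16.3, 26.3, 19.8, 19.4 and 19.8 CPM in the Ndrg3 LKO livers. All Ndrg3 LKO livers but replicate 2 were below the wild-type range, with a log2 fold change of -0.35 (SE 0.15, edgeR adjusted p = 0.0665). The call turned on single livers, as the edgeR adjusted p was 0.0149 without Ndrg3 LKO replicate 2 and 0.0470 without wild-type replicate 2. Under library-size scaling the value was 0.19, which is -0.37 from the all-gene median on that scale.

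*Lats2* (chr14:58260914-58377225, minus strand) was at 18.0, 18.0, 18.7, 19.95 and 15.7 CPM in the wild-type livers and at 15.8, 28.5, 25.0, 18.6 and 12.9 CPM in the Ndrg3 LKO livers. Ndrg3 LKO replicates 2 and 3 were above and replicate 5 below the wild-type livers, so that the group was wider than its shift (log2 fold change 0.16, SE 0.20, edgeR adjusted p = 0.516). It shares 332 exon bases with other annotated genes. The log2 ratio of *Lats2* to *Lats1* counts was -0.52 ± 0.15 (SD, n = 5) in wild-type and -0.05 ± 0.35 (SD, n = 5) in Ndrg3 LKO livers, with an exact permutation p of 0.0397 and 0.0529 after adjustment over the 4 ratios. Without Ndrg3 LKO replicate 5 the difference was 0.61 in place of 0.46, with an adjusted p of 0.0159 in the exact permutation test. Of the 12 alternatives run for this ratio, only 1 passed, that without replicate 5.

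**Figure D2:**
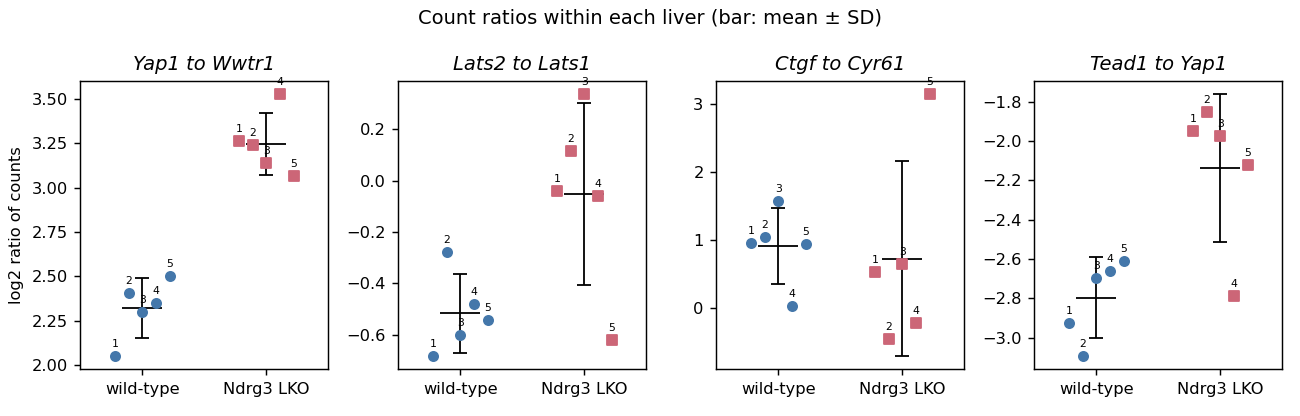
Log2 ratio of counts (vertical axes) of *Yap1* to *Wwtr1*, *Lats2* to *Lats1*, *Ctgf* to *Cyr61* and *Tead1* to *Yap1* in each liver, 1 point per liver, with the mean ± SD of the 5 livers of each group. The groups are apart for *Yap1* to *Wwtr1* and overlap for the other ratios.

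The target genes did not move as one. *Cyr61* (chr3:145309935-145312949, minus strand), a secreted matricellular protein, was at 4.55, 4.01, 7.97, 4.27 and 5.42 CPM in the wild-type livers and at 9.19, 15.8, 9.49, 22.1 and 5.99 CPM in the Ndrg3 LKO livers. Ndrg3 LKO replicates 1 to 4 lay above all wild-type livers and replicate 5 lay among them. The mean was 5.24 ± 1.61 CPM (SD, n = 5) against 12.5 ± 6.45 CPM (SD, n = 5), 2.40-fold higher in Ndrg3 LKO in the fit (log2 fold change 1.26, SE 0.33, edgeR adjusted p = 0.00847). Without Ndrg3 LKO replicate 5 the log2 fold change was 1.42 (adjusted p = 0.00144).

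*Ctgf* (chr10:24315248-24318489, plus strand), a relative of *Cyr61* that acts in matrix deposition, was at 8.76, 8.21, 23.6, 4.32 and 10.4 CPM in the wild-type livers and at 13.2, 11.4, 14.7, 19.0 and 52.9 CPM in the Ndrg3 LKO livers. The highest value of each group, wild-type replicate 3 and Ndrg3 LKO replicate 5, stood well above the others of that group, and the groups overlapped. The log2 fold change of 1.01 (SE 0.49) did not pass the test (edgeR adjusted p = 0.109). It was 0.39 without Ndrg3 LKO replicate 5 (adjusted p = 0.394) and 1.48 without wild-type replicate 3 (adjusted p = 0.0260), and under library-size scaling it was 1.42 (adjusted p = 0.0106), 0.86 from the all-gene median on that scale. *Ctgf* shares 570 exon bases with *Gm15270* on the opposite strand, and the strand setting of the counting is not stated, so its counts may hold reads of that gene.

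The 2 genes parted in Ndrg3 LKO replicate 5, which was the lowest Ndrg3 LKO liver for *Cyr61* and the highest for *Ctgf*. Counts of *Ctgf* per count of *Cyr61* were 1.93, 2.05, 2.97, 1.01 and 1.91 in wild-type replicates 1 to 5 against 1.44, 0.723, 1.55, 0.857 and 8.83 in Ndrg3 LKO replicates 1 to 5. The mean log2 ratio differed by -0.18 (exact permutation p = 0.833, and 0.833 after adjustment over the 4 ratios). Without Ndrg3 LKO replicate 5 it differed by -0.78 (exact permutation p = 0.103, and 0.103 after adjustment).

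*Axl* (chr7:26542292-26573724, minus strand), a receptor tyrosine kinase that binds GAS6 and serves in the uptake of dying cells, was at 5.79, 11.7, 5.57, 6.16 and 6.85 CPM in the wild-type livers and at 21.3, 11.5, 21.2, 15.8 and 14.5 CPM in the Ndrg3 LKO livers. Ndrg3 LKO replicate 2 was just under wild-type replicate 2, and the other 4 Ndrg3 LKO livers lay above every wild-type liver. *Axl* rose 2.34-fold in the fit (log2 fold change 1.22, SE 0.24, edgeR adjusted p = 0.00170), from 7.21 ± 2.55 CPM (SD, n = 5) to 16.8 ± 4.29 CPM (SD, n = 5).

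*Amotl2* (chr9:102619002-102635748, plus strand), an angiomotin family protein that binds YAP and restrains it, was at 39.9, 30.55, 28.9, 36.6 and 27.4 CPM in the wild-type livers and at 16.3, 33.3, 25.8, 24.0 and 15.2 CPM in the Ndrg3 LKO livers. All Ndrg3 LKO livers but replicate 2 were below the wild-type livers. The log2 fold change of -0.51 (SE 0.21) did not pass with edgeR (adjusted p = 0.0651), but did with limma (adjusted p = 0.0464) and with edgeR without Ndrg3 LKO replicate 2 (-0.68, adjusted p = 0.0128). Under library-size scaling it was 0.06, which is -0.50 from the all-gene median on that scale.

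*Ankrd1* (chr19:36186455-36194334, minus strand), a muscle ankyrin repeat protein used as a YAP target in many cells, was near the limit of detection. It had 3, 2, 1, 6 and 2 counts in the wild-type livers and 16, 14, 11, 6 and 4 counts in the Ndrg3 LKO livers, below 1 CPM in every liver. In a fit with no filter its log2 fold change was 0.94 and did not pass the test (edgeR adjusted p = 0.154). In the wild-type livers 4 of 5 counts were at or below 3, so the size of the change is poorly set.

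**Figure D3:**
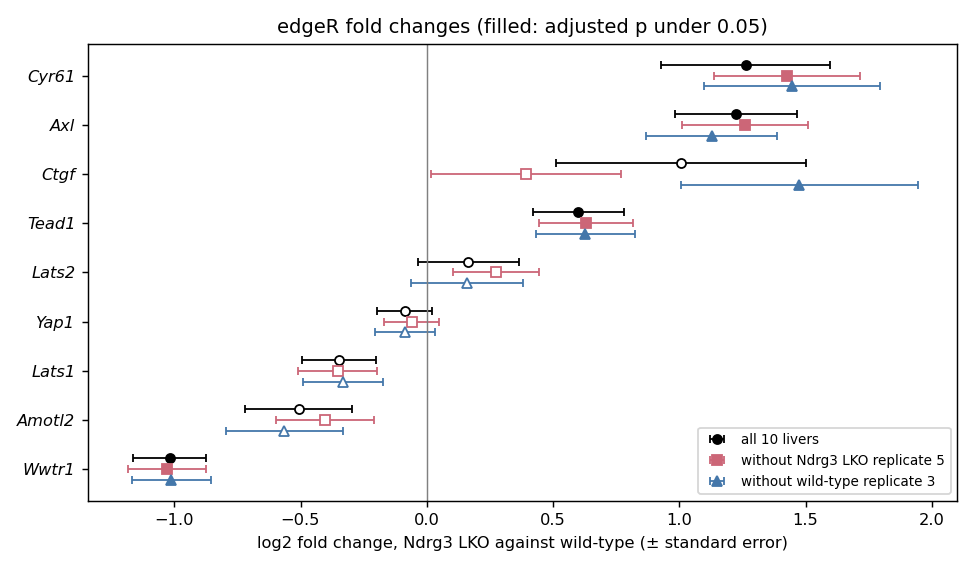
Log2 fold change of Ndrg3 LKO against wild-type livers with its standard error for the 9 tested genes (filled where the edgeR adjusted p is below 0.05). The fits are edgeR with all 10 livers, without Ndrg3 LKO replicate 5 and without wild-type replicate 3. In that order *Ctgf* shows the widest gap between fits, at 1.01, 0.39 and 1.48, and *Wwtr1* is lowest in each, at -1.02, -1.03 and -1.01.

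Levels can be compared roughly between genes per kilobase of annotated exon, taken as the union of all annotated exons of a gene. The transcripts present in liver may be shorter than that union, so the order depends on the annotation. In wild-type livers *Yap1* had the highest mean, 7.16 ± 0.477 CPM per kb (SD, n = 5), above every liver of the next gene, *Amotl2*, at 5.20 ± 0.847. The highest wild-type liver for *Ctgf*, at 9.49 CPM per kb, was above every wild-type liver for *Yap1*. *Ctgf* (4.44 ± 2.96), *Lats1* (3.55 ± 0.461), *Wwtr1* (2.79 ± 0.389), *Cyr61* (2.58 ± 0.795), *Lats2* (2.47 ± 0.214) and *Axl* (1.43 ± 0.506) followed, each overlapping its neighbours in CPM per kb. *Tead1* at 0.852 ± 0.0911 CPM per kb lay below all livers of *Axl*, and *Ankrd1* was last at 0.0812. In Ndrg3 LKO livers the order began with *Ctgf* (8.94 ± 6.97 CPM per kb), *Yap1* (6.73 ± 0.675) and *Cyr61* (6.17 ± 3.18), whose livers overlapped. The place of *Ctgf* rested on replicate 5, without which the order began with *Cyr61* (6.98 ± 3.02 CPM per kb, SD, n = 4), *Yap1* (6.92 ± 0.607) and *Ctgf* (5.86 ± 1.29), again overlapping. Over all 5 livers *Amotl2* (3.65 ± 1.18), *Axl* (3.35 ± 0.853) and *Lats1* (2.79 ± 0.501) came next, each overlapping its neighbours. *Wwtr1* was at 1.38 ± 0.163 CPM per kb, beside *Tead1* at 1.29 ± 0.321, and below every liver of *Lats2* (2.77 ± 0.886).

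The upstream genes of the pathway moved both ways. Of 23 genes listed, 22 were tested, 7 rose and 6 fell (59.1%, against 48.6% of all genes), with a median log2 fold change of -0.05. Without Ndrg3 LKO replicate 5 there were also 7 and 6 (59.1%, against 55.6% of all genes). Under library-size scaling 8 were higher and 2 lower (45.5%, against 61.0% of all genes), so the share was then below that of all genes. In 6 of the genes, *Dchs1* included, every Ndrg3 LKO liver was above the wild-type range and in 5 every one was below it (15.5% and 16.0% of all genes). *Dchs1* and *Ptpn14* passed the filter, taken before TMM scaling, through the Ndrg3 LKO livers alone. Without them 5 rose and 6 fell of 20 (55.0%). *Map4k4*, a kinase that can act on LATS in parallel to the MST kinases, was at 1.95 to 5.11 CPM in wild-type and 13.1 to 26.6 CPM in Ndrg3 LKO livers (log2 fold change 2.23, SE 0.27, edgeR adjusted p = 8.13e-05). *Rassf1*, a scaffold that binds the MST kinases, was at 6.25 to 10.4 CPM in wild-type and 17.0 to 34.4 CPM in Ndrg3 LKO livers (1.74, SE 0.20, adjusted p = 6.40e-05). Of its 5425 exon bases 2432 are shared with *Gm9917* on the opposite strand, so its counts may hold reads of that gene. *Frmd6*, a FERM domain protein, rose from 2.62 to 3.73 CPM to 4.63 to 9.93 CPM (1.15, SE 0.24, adjusted p = 0.00211). *Dchs1*, an atypical cadherin, was at 0.334 to 0.684 CPM in wild-type and 1.03 to 5.23 CPM in Ndrg3 LKO livers (2.30, SE 0.43, adjusted p = 0.00122).

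Among the genes that fell, *Taok3*, a kinase that activates the MST kinases, went from 31.5 to 49.7 CPM in wild-type to 8.99 to 21.3 CPM in Ndrg3 LKO livers (log2 fold change -1.38, SE 0.23, edgeR adjusted p = 0.000633). The related *Taok2* and *Taok1* fell by 0.95 and 0.51, and *Nf2*, the merlin tumour suppressor, fell by 0.54 on the log2 scale. Under library-size scaling *Taok1* was at 0.01 (edgeR adjusted p = 0.960) and *Nf2* at -0.01 (adjusted p = 0.966), beside an all-gene median of 0.56. The core of the cascade did not pass the test. *Stk3* and *Stk4*, which encode the MST kinases, had log2 fold changes of -0.30 (edgeR adjusted p = 0.149) and -0.27 (adjusted p = 0.0834, and 0.0302 without Ndrg3 LKO replicate 2), and their partner *Sav1* had -0.23 (adjusted p = 0.160). *Mob1a* and *Mob1b*, cofactors of LATS, had 0.25 each (adjusted p = 0.649 and 0.525), with Ndrg3 LKO replicates 2 and 3 above the other livers of that group for both. Without replicate 2 they had -0.18 and -0.05. The polarity gene *Scrib* was the most abundant one that did not pass, at 29.7 and 24.0 CPM (-0.31, adjusted p = 0.0720, and 0.0175 without wild-type replicate 3). *Taok1*, *Taok2*, *Nf2*, *Stk3*, *Stk4*, *Sav1*, the *Mob1* genes and, described next, *Vgll4* and *Tead2* were named after their values were seen.

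Of the other TEAD factors and the VGLL cofactors, 2 of 7 genes were tested and 0 passed with edgeR, DESeq2 or limma, with 0 at an unadjusted p under 0.05. *Tead3* was at 3.51 to 9.38 CPM in wild-type and 5.47 to 7.75 CPM in Ndrg3 LKO livers (log2 fold change -0.02, adjusted p = 0.946), and *Vgll4*, which competes with YAP for TEAD, had -0.36 (adjusted p = 0.569). *Tead2* was under the filter, at 0.238 to 0.449 CPM in wild-type and 0.566 to 1.26 CPM in Ndrg3 LKO livers, with no overlap, and passed in the edgeR fit with no filter (log2 fold change 1.23, adjusted p = 0.0130). *Tead4* and *Vgll1* to *Vgll3* were at or near 0 counts.

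Among other known YAP and TAZ targets most of the called genes were higher. Of 16 listed genes 13 were tested, 7 rose and 2 fell (69.2%, against 48.6% of all genes), with a median log2 fold change of 0.78. Without Ndrg3 LKO replicate 5 there were 6 and 2 (61.5%, against 55.6% of all genes). Under library-size scaling 10 were higher and 0 lower (76.9%, against 61.0% of all genes). On that scale 5834 of all genes were called higher and 1005 lower. *Gadd45a* and *Ptpn14*, which is on both lists, passed the filter, taken before TMM scaling, through the Ndrg3 LKO livers alone. Without them 5 rose and 2 fell of 11 (63.6%), with a median of 0.61. *Nt5e*, the ectoenzyme CD73 that makes adenosine, was at 5.17, 4.15, 6.80, 2.67 and 3.99 CPM in the wild-type livers and at 32.0, 44.4, 47.9, 22.8 and 34.1 CPM in the Ndrg3 LKO livers. The groups were far apart in all livers, with a 7.98-fold rise in the fit (log2 fold change 3.00, SE 0.27, edgeR adjusted p = 1.27e-05). *Ccdc80*, a secreted matrix protein, rose from 2.71 to 4.74 CPM to 8.02 to 18.0 CPM (1.86, SE 0.23, adjusted p = 9.78e-05). *Gadd45a*, a stress response gene, had 0.674 to 1.01 CPM in wild-type and 1.52 to 7.24 CPM in Ndrg3 LKO livers (2.18, SE 0.37, adjusted p = 0.000751), and *Myof*, a membrane repair protein, had 0.417 to 1.37 and 1.84 to 2.75 CPM (1.21, SE 0.30, adjusted p = 0.00584).

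*Nuak2*, an AMPK-related kinase, fell from 9.72 to 15.7 CPM to 5.42 to 7.46 CPM (log2 fold change -0.91, SE 0.17, edgeR adjusted p = 0.00141), but had -0.37 under library-size scaling (adjusted p = 0.185). *Igfbp3*, a carrier of insulin-like growth factors, did not pass (0.79, SE 0.52, adjusted p = 0.225). It was at 10.95, 8.46, 22.01, 7.95 and 9.76 CPM in the wild-type livers and at 13.7, 8.14, 7.82, 17.7 and 55.2 CPM in the Ndrg3 LKO livers. Its highest livers, wild-type replicate 3 and Ndrg3 LKO replicate 5, were those of *Ctgf*, and without Ndrg3 LKO replicate 5 its log2 fold change was -0.01 (adjusted p = 0.985).

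**Figure D4:**
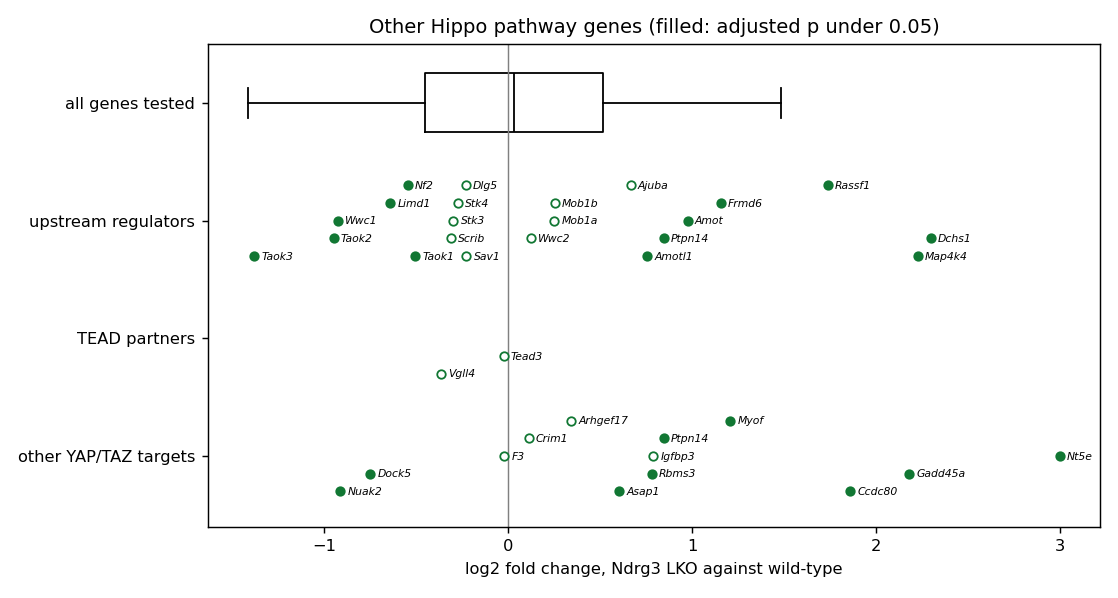
Log2 fold change of Ndrg3 LKO against wild-type livers for each tested gene of the upstream, TEAD partner and other target lists (1 point per gene, filled where the edgeR adjusted p is below 0.05). Beside them are all 11208 genes tested, whose box spans the quartiles with the median and whose whiskers run from the 5th to the 95th percentile. Upstream genes lie on both sides of 0, and *Nt5e* is the highest target at 3.00.

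Several of these genes are also expressed by cells other than hepatocytes, and the markers of those cells differed between the groups. In bulk liver, fewer cells of a type and less RNA per cell cannot be told apart. Of 8 hepatocyte markers 7 fell, all but *Cps1*, against 23.0% of all genes called lower. With DESeq2 6 fell, and with a liver left out 5 to 7. *Cps1* was called higher under library-size scaling. The sum of the hepatocyte markers, of which *Alb* is the most abundant, was 131815 to 173576 CPM in wild-type livers. It was 35494 to 41234 CPM in Ndrg3 LKO replicates 1 to 4 and 146318 CPM in replicate 5. No marker of the 8 lists given here was at 0 in all livers.

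Macrophage markers moved with *Axl*. All 7 rose (*Clec4f* most abundant), against 25.6% of all genes called higher. Their sum was 79.4, 202, 92.8, 105 and 127 CPM in the wild-type livers and 563, 182, 563, 297 and 236 CPM in the Ndrg3 LKO livers. Wild-type replicate 2 was the highest wild-type liver and Ndrg3 LKO replicate 2 the lowest Ndrg3 LKO liver for both *Axl* and the macrophage sum, and Ndrg3 LKO replicates 1 and 3 were the highest for both. The ratio of group means was 3.03 for the sum, 2.40 for the sum without *Marco*, which alone had 19.6, and 2.34 for *Axl*. The part of macrophages in the *Axl* result was not tested.

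**Figure D5:**
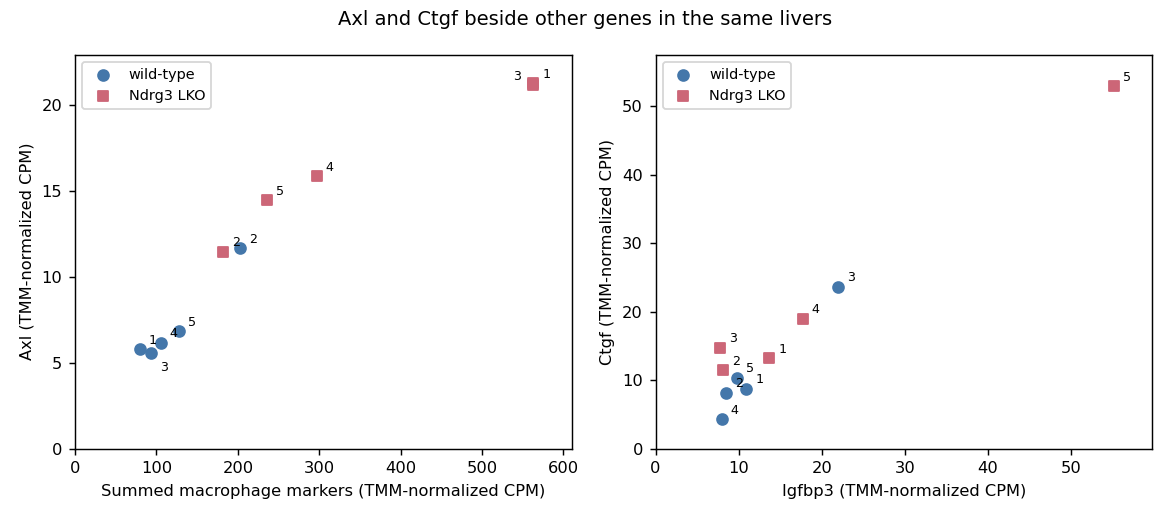
Left, TMM-normalized CPM of *Axl* against the summed CPM of 7 macrophage markers. Right, *Ctgf* against *Igfbp3*, both in CPM. Each point is 1 liver with its replicate number, and axes are linear from 0. *Axl* and the macrophage sum order the livers nearly alike across both groups, and Ndrg3 LKO replicate 5 lies alone at 52.9 CPM of *Ctgf* and 55.2 CPM of *Igfbp3*.

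Stellate cell and fibroblast markers, which come from cells that make *Ctgf* and *Cyr61*, rose for 8 of 10 genes (*Dcn* most abundant), against 25.6% of all genes. Their sum was 169, 134, 171, 121 and 187 CPM in the wild-type livers and 342, 263, 334, 311 and 265 CPM in the Ndrg3 LKO livers, without overlap. Endothelial markers rose for 6 of 7 genes (*Clec4g* most abundant), against the same 25.6%, with sums of 51.0 to 66.7 CPM and 106 to 147 CPM. *Wwtr1* was lower while both sums were higher. *Dcn* made up 59.5% of the stellate cell and fibroblast sum and, at 129 CPM, was lowest among the Ndrg3 LKO livers in replicate 5, the high liver for *Ctgf*. Within that group *Col1a1* (7.73 CPM), *Col1a2* (16.9 CPM), *Col3a1* (42.3 CPM) and *Pdgfrb* (7.40 CPM) were highest in replicate 5. Like *Dcn*, *Lrat* (14.5 CPM) and *Lum* (5.33 CPM) were lowest there, while *Reln*, *Des* and *Rgs5* were neither highest nor lowest. These markers were named after their values were seen. Smooth muscle markers (*Tagln* most abundant) summed to 6.89 to 17.4 CPM and 10.4 to 26.4 CPM, highest in Ndrg3 LKO replicate 5. Of their 4 tested genes 0 passed with edgeR and 1 each with DESeq2 and limma, with 2 at an unadjusted p under 0.05 in edgeR. *Cnn1* was under the filter. Under library-size scaling 3 of the 4 were called higher (75.0%, against 61.0% of all genes called). The part of these cells in the results was not tested.

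Bile duct cells, in which YAP is active, gave no uniform change. Of 6 tested cholangiocyte markers *Spp1* rose and *Sox9* fell, *Cldn7* was under the filter, and under library-size scaling 3 were called higher and 0 lower. *Spp1* alone made up 79.7% of the cholangiocyte sum, which was 50.1 to 81.4 CPM in wild-type and 57.4 to 230 CPM in Ndrg3 LKO livers. *Ptprc*, which leukocytes in general carry, rose (log2 fold change 1.27, edgeR adjusted p = 0.00395). Mesothelial markers (*Msln* most abundant) summed to 1.13 to 6.85 CPM in wild-type and 2.41 to 4.87 CPM in Ndrg3 LKO livers, with 0 of 2 passing with edgeR, DESeq2 or limma, 0 at an unadjusted p under 0.05, and *Wt1* and *Lrrn4* under the filter. Cell division genes, which YAP activity is known to accompany, rose for 5 of 5 tested, against 25.6% of all genes called higher. *Cdk1* was most abundant and *Ccna2* was under the filter. *Top2a* and *Ccnb1* passed the filter, taken before TMM scaling, through the Ndrg3 LKO livers alone, and without them 3 of 3 rose. The sum over the list was 4.55 to 7.69 CPM in wild-type livers and 68.1, 13.2, 10.6, 41.5 and 93.1 CPM in Ndrg3 LKO replicates 1 to 5. Ndrg3 LKO replicate 5 was the highest for this sum and for *Ctgf*, and the lowest of the Ndrg3 LKO livers for *Cyr61*.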

How the data were processed

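Per the labels and methods, RNA from 10 livers was made into stranded mRNA libraries, trimmed with Trim Galore 0.6.4, mapped to mm9 and counted per gene with STAR, version 2.7.3a in the submitters' processing notes and another in the methods. The annotation and strand setting are not given in the sources used here. The deposited values are whole-number counts of unequal totals, although the files are named for CPM, and were used as raw counts. Of 24052 symbols, 6306 were at 0 in every liver and 25 look like dates.

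Genes reaching 1 CPM in 5 or more livers (4 where a liver was left out) were tested with edgeR 4.0.16 in R 4.3.3 (TMM, quasi-likelihood test, Benjamini-Hochberg adjustment, threshold 0.05). The SE is the size of the log2 fold change over the square root of F. CPM are counts over TMM-scaled library sizes. The filter of 1 CPM and the floor given below used unscaled library totals instead. Ratios of counts were compared with 2-sided exact permutation tests. A library's floor was taken as 3 counts, which covers counting error only. Over unscaled library totals it was 0.0985 to 0.144 CPM. Nothing states which livers share a litter, so p-values measure the spread between these livers. Genes were placed in GENCODE's annotation of NCBIM37 (mm9), in which 20945 symbols were found.

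Alternatives were other scalings, DESeq2 1.42.0, limma 3.58.1 on log2(CPM + 1), no filter, a mean CPM of at least 5, the replicate number as a block, and each liver left out. The genes and lists were chosen with earlier results of these data known. Named genes are the 10 genes, *Ndrg3*, up to 5 changed genes of largest size and the most abundant unchanged gene of each pathway list, the most abundant marker and any marker at or near 0 of each cell list, and the 5 genes of at least 10 CPM most like *Yap1* and *Ctgf*. The list of lymphocyte markers is not reported here as a list or sum. The fit was checked on simulated counts.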

Additional observations from a re-analysis of the deposited data

Results flagged for a closer look

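In 33 genes, with 66 groups of 5 livers examined, 7 values lay far from the other livers of their group by Dixon's criterion, and chance gives about 1 in 20 groups. *Ctgf* was at 52.9 CPM in Ndrg3 LKO replicate 5, with the other Ndrg3 LKO livers at 11.4 to 19.0 CPM. *Igfbp3*, another YAP target, was at 55.2 CPM in the same liver, with the others at 7.82 to 17.7 CPM, and at 22.01 CPM in wild-type replicate 3, with the others at 7.95 to 10.95 CPM. *Axl* was at 11.7 CPM in wild-type replicate 2, with the other wild-type livers at 5.57 to 6.85 CPM. That liver also had the highest sum of macrophage markers among wild-type livers, at 202 CPM. In Ndrg3 LKO replicate 5, *Taok2* was at 29.7 CPM, with the others at 18.4 to 21.4 CPM, and *Stk3* at 4.71 CPM, with the others at 5.89 to 6.32 CPM. *Mob1b* was at 16.3 CPM in wild-type replicate 4, with the others at 11.4 to 12.7 CPM.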

How the results depend on the processing

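Changed genes numbered 4254 to 6839 over the alternatives (4703 to 6360 with a liver left out), the Hippo-YAP genes 3 to 7 (4 to 6), the upstream genes 10 to 13 and the other targets 5 to 10 (7 to 9). Library-size scaling gave 7 changed Hippo-YAP genes, and a mean CPM of at least 5 left 5 other targets, with 7 of them tested. Without a filter 1 TEAD partner passed, *Tead2* (log2 fold change 1.23, edgeR adjusted p = 0.0130). *Wwtr1*, *Cyr61* and *Axl* kept their direction and their call under every alternative run.

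Signs turned under library-size scaling for *Yap1* (0.46), *Lats1* (0.19), *Amotl2* (0.063), *Scrib* (0.21), *Tead3* (0.52), *Stk3* (0.25), *Stk4* (0.26), *Sav1* (0.31), *Vgll4* (0.21) and *Taok1* (0.011), beside a shift of the median of all genes to 0.56. *Tead3*, near 0 throughout, was also positive with upper-quartile scaling (0.043), limma (0.026), a mean CPM of at least 5 (0.029) and the replicate block (0.026), and ranged from -0.21 to 0.10 with a liver left out. *Igfbp3* was at -0.0084 without Ndrg3 LKO replicate 5 and ranged up to 1.12 with wild-type replicate 3 left out. With a liver left out, the difference of log2 ratios ranged from -0.78 (without Ndrg3 LKO replicate 5) to 0.12 (without Ndrg3 LKO replicate 2) for *Ctgf* to *Cyr61*, 0.58 to 0.82 for *Tead1* to *Yap1*, and 0.37 to 0.61 for *Lats2* to *Lats1*. The cause was not tested. Under library-size scaling *Ctgf* (1.42), *Lats2* (0.73) and *Igfbp3* (1.16) passed the threshold while *Nuak2* (-0.37, edgeR adjusted p = 0.185), *Nf2* (-0.012) and *Taok1* no longer did. *Mob1a* was at -0.014 with limma and -0.043 with the replicate block. With a liver left out, *Mob1a* ranged from -0.18 to 0.46, *Mob1b* from -0.052 to 0.42 and *Vgll4* from -0.70 to 0.092.

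Wild-type and Ndrg3 LKO livers of one number correlated at -0.36 to 0.04 in their deviations from the group means. None correlated best with its own number. Such correlations cannot show whether livers of one number share a litter, which is not stated. A block for the replicate number left 4412 genes past the threshold, 4332 of them also without it, and 3 Hippo-YAP genes, with *Tead1* at 0.57 (edgeR adjusted p = 0.0551) and *Taok1* at -0.51 (adjusted p = 0.0523). The blocked ratio of *Yap1* to *Wwtr1* was 0.92, with an exact sign-flip p of 0.0625, the smallest 5 pairs allow, and 0.167 after adjustment. *Ankrd1* in wild-type livers, *Tead4* and *Vgll1* to *Vgll3* lie near the floor of 3 counts.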

Other observations

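Genes whose variation between livers was most like that of *Yap1* and *Ctgf* were read from the deviations from the group means of log2(CPM + 1) over the 10 livers, among 7158 genes of at least 10 CPM. Correlations are descriptions over livers that share library effects, and carry no p. For *Yap1* they were *Rprd1b*, *Tob2* and *Slu7* (Pearson's r 0.93 each), *Mgea5* (0.90) and *Pak2* (0.89). For *Ctgf* they were *Hmgn5* (0.99), *Apmap* (0.95), *Ppm1b* (0.95), *Tfam* (0.94) and *Phospho2* (0.94), and its deviation is set mostly by Ndrg3 LKO replicate 5.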
